A study of Mus musculus with 16 samples.

Results

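The genes described here are 10 of the 35682 in the count table: Vcan, Ccdc80, the small leucine-rich proteoglycans Bgn, Dcn, Lum, Fmod and Ogn, and the matrix glycoproteins Fbln1, Fbln2 and Fbn1. They were chosen by symbol, and with earlier results of the genotype comparison known, so their differences between genotypes are given as a description. Whether each gene passed the threshold used for all genes is stated as part of that description and supports nothing. After a filter on low counts, 9 of the 10 were among the 10945 genes tested, and Fmod was not.

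All 10 genes encode secreted proteins of the extracellular matrix. Versican, the product of Vcan, is a large chondroitin sulfate proteoglycan that binds hyaluronan at one end and fibulins and fibrillin at the other. Small leucine-rich proteoglycans sit on collagen fibrils and regulate how fibrils assemble, while fibrillin polymers form the microfibrils on which elastic fibres are built. In the heart such proteins are made mainly by fibroblasts, and their production is known to rise under pressure overload.

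RNA came from adult ventricular myocytes of mice, 8 of them transgenic (B3AR-Tg) and 8 wild-type (WT) littermates. The transgene is named for the beta-3 adrenergic receptor, and the labels give neither its promoter nor the species of its sequence, nor the animals' age or sex. Both groups had been operated 9 weeks before cell isolation by TAC (transverse aortic constriction), in which a tie around the aortic arch loads the left ventricle. No unoperated animals were analysed here, so every value below is a level after TAC and not a response to it. The comparison asks how gene expression differs between the genotypes after the same surgery.

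The 16 libraries held 5985335 to 14365864 counts and 14070 to 15713 detected genes each. A floor of 3 counts corresponded to 0.201 to 0.487 CPM (counts relative to the library total in units of 1e6, with totals scaled by TMM factors), and it covers counting error only. Adrb3, the mouse gene for the receptor, had 0 to 4 counts in every library and so did not check the labels. Adgrb3 had 0 to 3 counts in each WT library and 247 to 723 in each B3AR-Tg library, and where these reads come from was not tested. The cardiomyocyte markers summed to 72939 to 98615 CPM in WT and 80550 to 116133 CPM in B3AR-Tg, and Ttn alone averaged 35654 ± 7608 CPM in WT (SD, n = 8). Markers of the labelled cell type were thus high in every library. The 10 matrix genes together summed to 165 to 209 CPM per animal in WT and 106 to 148 CPM in B3AR-Tg. In such bulk samples fewer cells of a type and less RNA per cell cannot be told apart.

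The promoters of 3 genes are shown because their levels had contrasting patterns over animals: Vcan and Bgn were high in the same animals, and Ogn was high where those were low. The sequences are from RefSeq (build GRCm38.p6) and cover the 250 bases before the annotated start, read 5′ to 3′ on the gene's strand. Capitals mark matches on either strand to the motifs named after the sequences.
Vcan, chr13:89742513-89742762, minus strand: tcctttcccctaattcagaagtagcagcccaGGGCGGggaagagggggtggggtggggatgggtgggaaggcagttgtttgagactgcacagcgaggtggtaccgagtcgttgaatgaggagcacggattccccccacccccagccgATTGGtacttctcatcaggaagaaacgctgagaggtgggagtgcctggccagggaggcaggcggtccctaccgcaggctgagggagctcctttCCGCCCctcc
Bgn, chrX:73483351-73483600, plus strand: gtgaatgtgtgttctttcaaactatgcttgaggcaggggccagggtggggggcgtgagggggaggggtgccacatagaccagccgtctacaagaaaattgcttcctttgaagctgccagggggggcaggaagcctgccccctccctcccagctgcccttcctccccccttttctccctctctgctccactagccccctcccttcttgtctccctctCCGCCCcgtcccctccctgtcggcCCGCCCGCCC
Ogn, chr13:49607765-49608014, plus strand: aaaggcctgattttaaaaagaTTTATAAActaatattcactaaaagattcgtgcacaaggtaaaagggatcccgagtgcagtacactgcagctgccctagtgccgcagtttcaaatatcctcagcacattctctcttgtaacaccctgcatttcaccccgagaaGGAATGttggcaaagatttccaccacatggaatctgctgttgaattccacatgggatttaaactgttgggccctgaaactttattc
The Vcan window held 2 GC boxes, searched as GGGCGG, and the Bgn window held 3, of which the last 2 overlap. GC boxes occurred in 32.7% of the 32851 RefSeq windows of this length. Vcan also had 1 CCAAT box, found in 33.8% of windows. The Ogn window had no GC box. It held 1 MCAT element, searched as CATTCC and found in 12.6% of windows. Its 2 TATA boxes, searched as TATAAA and found in 12.4% of windows, overlap on opposite strands and lie far upstream of the start. An AP-1 site, searched as TGANTCA and present in 6.75% of all windows, matched none of the 3. GC content was 62.4% for Vcan, 64.4% for Bgn and 42.0% for Ogn, around a median of 52.4%. GENCODE M21 has no Ogn transcript that holds the bases just after the RefSeq start, and the window follows the RefSeq start. A match is a description of the letters and was not tied to any binding measurement.

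Ogn, which encodes osteoglycin (also called mimecan), was the most abundant of the 10 genes and the one whose genotype means differed least. The other 9 had lower mean levels in B3AR-Tg, with Vcan the furthest down, 4.09-fold lower by the fitted fold change. Of the 9 tested genes 6 passed the threshold of adjusted p under 0.05 in edgeR over all tested genes in the lower direction (Vcan, Ccdc80, Bgn, Dcn, Fbln2 and Fbn1), and 0 passed in the higher direction. Over all tested genes 2.88% passed in the lower direction and 2.03% in the higher. The genes were chosen with this contrast known, so nothing is read from their count. The median log2 fold change was −1.25 over the 9 genes and 0.01 over all tested genes.

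**Figure D1:**
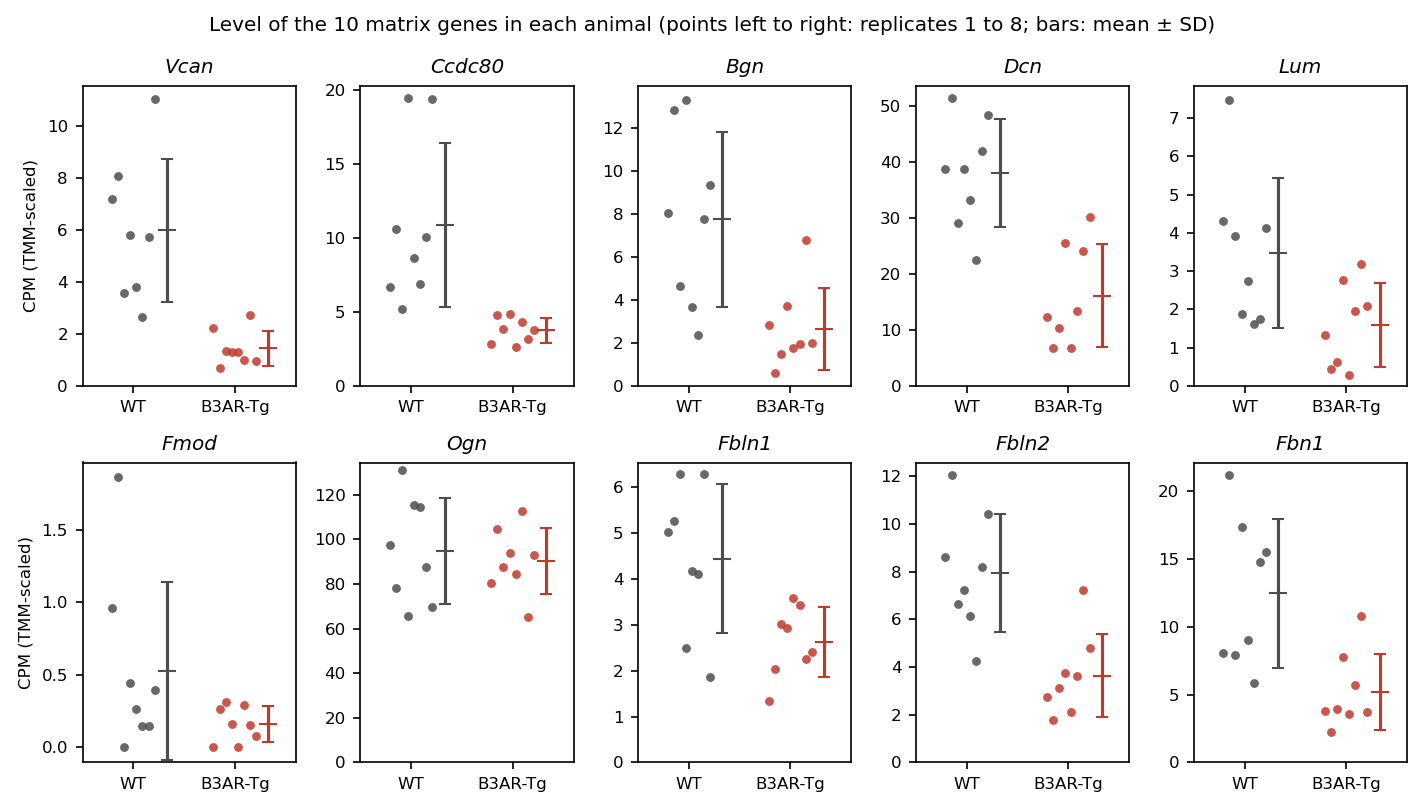
Level of each of the 10 genes in CPM (linear axis, scaled by TMM factors) in WT (grey) and B3AR-Tg (red), with 1 point per animal and the mean ± SD of 8 animals beside them; the bar for Fmod reaches below 0 because its SD exceeds its mean. On this scale Ccdc80 is the gene whose genotypes do not overlap (lowest WT animal 5.22 CPM, highest B3AR-Tg animal 4.87 CPM), although its raw counts do. Ogn shows nearly the same range in both.

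Levels of different genes can be set against each other only per length, here as mean WT CPM per kilobase of exon (GENCODE M21 exon union). On that scale Ogn was at 37.0 ± 9.28 (SD, n = 8), Dcn at 6.51 ± 1.64 and Ccdc80 at 2.54 ± 1.30. Lum at 1.42 ± 0.800, Bgn at 1.27 ± 0.664, Fbln2 at 1.25 ± 0.387, Fbn1 at 1.03 ± 0.451 and Fbln1 at 1.02 ± 0.372 followed, and neighbours in this run differed by less than 1 SD. Vcan at 0.413 ± 0.190 and Fmod at 0.160 ± 0.186 were the lowest. In B3AR-Tg Ogn was at 35.2 ± 5.72 and Dcn at 2.77 ± 1.56 CPM per kilobase, again the highest of the 10, while Vcan was at 0.0996 ± 0.0473.

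Vcan, the hyaluronan-binding proteoglycan, ranged in WT from 2.65 through a median of 5.76 to 11.0 CPM, and in B3AR-Tg from 0.706 through 1.29 to 2.72 CPM. These are 18 to 112 counts per WT library and 8 to 35 per B3AR-Tg library. Only replicate 7 of the B3AR-Tg animals stood above the lowest WT animal, replicate 6, so the groups met by 1 animal. Means were 5.97 ± 2.75 CPM in WT against 1.44 ± 0.684 in B3AR-Tg (SD, n = 8 each), and the log2 fold change was −2.03 (standard error, SE, 0.30, 95% interval −2.66 to −1.40). Leaving out any 1 animal kept the log2 fold change between −2.23 and −1.85.

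Ccdc80 encodes a secreted protein that associates with the matrix. It ranged in WT from 5.22 through 9.36 to 19.5 CPM and in B3AR-Tg from 2.66 through 3.82 to 4.87 CPM. On this TMM-scaled measure every B3AR-Tg animal was below every WT animal, which held for 0.247% of all tested genes. The gap was narrow, between 4.87 and 5.22 CPM. Raw counts did overlap, with 44 to 218 per WT library and 29 to 54 per B3AR-Tg library, so the separation depends on the scaling. The WT values were not evenly spread: replicates 4 and 8 were at 19.5 CPM each and the other 6 WT animals lay between 5.22 and 10.6 CPM. In B3AR-Tg the animals were close together, with an SD of 0.844 CPM around a mean of 3.78 CPM, against 5.58 around 10.9 CPM in WT. Its log2 fold change was −1.55 (SE 0.25). Its relatives Srpx and Srpx2 were too low to be tested, with 8 and 48 counts summed over the WT libraries and 11 and 19 over B3AR-Tg.

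Bgn and Dcn encode biglycan and decorin, the closely related proteoglycans that bind collagen fibrils and growth factors of the TGF-beta family. Bgn ranged from 2.35 through 7.90 to 13.3 CPM in WT and from 0.618 through 1.98 to 6.77 CPM in B3AR-Tg. These are 16 to 151 counts per WT library and 7 to 87 per B3AR-Tg library. Its spread was wide in both genotypes, and 3 B3AR-Tg animals were above the lowest WT animal. The log2 fold change of Bgn was −1.57 (SE 0.38). It no longer passed the threshold without WT replicate 4 (log2 fold change −1.41) or without B3AR-Tg replicate 5 (−1.49). Dcn ranged from 22.5 through 38.7 to 51.3 CPM in WT and from 6.70 through 12.8 to 30.2 CPM in B3AR-Tg. Only B3AR-Tg replicates 4, 7 and 8, with 25.5, 24.1 and 30.2 CPM of Dcn, were above the lowest WT animal. The log2 fold change of Dcn was −1.25 (SE 0.27).

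Lum and Fmod encode lumican and fibromodulin, which share a binding site on collagen. Lum ranged from 1.62 through 3.33 to 7.48 CPM in WT and from 0.275 through 1.65 to 3.19 CPM in B3AR-Tg. These are 11 to 88 counts per WT library and 3 to 41 per B3AR-Tg library, so the lowest B3AR-Tg animal, replicate 5, was at the floor. The groups overlapped, with 4 B3AR-Tg animals above the lowest WT animal. Its log2 fold change of −1.17 had a 95% interval of −2.02 to −0.31, and it did not pass the threshold over all genes. Fmod was near the floor. Its counts in WT replicates 1 to 8 were 8, 22, 0, 5, 2, 1, 1 and 4, and in B3AR-Tg replicates 1 to 8 they were 0, 3, 3, 1, 0, 3, 2 and 1. WT replicates 1 and 2 held most of the 43 WT counts, against 13 in B3AR-Tg, and no fold change is given.

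Ogn ranged from 65.5 through 92.6 to 131 CPM in WT and from 65.2 through 90.4 to 113 CPM in B3AR-Tg. Of the 8 B3AR-Tg animals 4 were above the WT median. Mean levels were 95.0 ± 23.8 and 90.2 ± 14.7 CPM (SD, n = 8 each), and the log2 fold change was −0.07 (SE 0.14, 95% interval −0.36 to 0.21). With 598 to 1106 counts per WT library and 577 to 1202 per B3AR-Tg library, Ogn was also the most deeply counted of the 10. Ogn lies inside Cenpp, a gene on the opposite strand, without sharing exons with it, and Cenpp averaged 2.80 ± 0.962 CPM in WT against 2.11 ± 0.312 in B3AR-Tg. Its neighbours on the chromosome are Omd, Aspn and Ecm2, all of the same protein family. Omd had 10 counts summed over WT and 16 over B3AR-Tg, the fold change of Ecm2 did not pass (log2 −0.47), and Aspn is described with the lists.

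Fbln1 and Fbln2 encode fibulins, and Fbn1 encodes fibrillin-1, the backbone of the microfibril. Fbln1 ranged from 1.87 through 4.61 to 6.29 CPM in WT and from 1.34 through 2.67 to 3.58 CPM in B3AR-Tg. Its log2 fold change, −0.76 (SE 0.25), did not pass the threshold, but did when WT replicate 8, the lowest WT animal for this gene, was left out (−0.88). Fbln2 ranged from 4.27 through 7.71 to 12.1 CPM in WT and from 1.77 through 3.38 to 7.24 CPM in B3AR-Tg, and the log2 fold change was −1.13 (SE 0.25). Fbn1 ranged from 5.88 through 11.9 to 21.2 CPM in WT and from 2.21 through 3.89 to 10.8 CPM in B3AR-Tg, and the log2 fold change was −1.29 (SE 0.30). For both Fbln2 and Fbn1, 6 of 8 B3AR-Tg animals were below all WT animals, and the 2 above the lowest WT animal were replicates 7 and 8 for Fbln2 and replicates 4 and 7 for Fbn1. The exons of Fbn1 overlap those of the opposite-strand gene Gm9913 in GENCODE M21.

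The same animals tended to be high or low for several genes. Among WT animals replicate 6 was the lowest for 6 of the 9 tested genes and replicate 2 the highest for 4. Among B3AR-Tg animals replicate 7 was the highest for 5 and replicate 2 the lowest for 4. The spread between animals was large for several: the SD of log2 CPM of Bgn was 0.86 in WT and 0.91 in B3AR-Tg, against medians of 0.27 and 0.27 over all tested genes. Ogn had SDs of 0.36 and 0.24.

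Variation between animals of 1 genotype was not used to choose the genes, so the 36 pairs of the 9 tested genes were correlated over 8 animals in each genotype (log2 CPM, exact permutation of pairings, two-sided, Benjamini-Hochberg over all 72 pairs). In WT 12 pairs had a positive r with an unadjusted p under the threshold, and 8 of these passed after adjustment. In B3AR-Tg 10 pairs did and 4 passed. When each of the 9 genes was paired with every other tested gene, 6.2% of pairs in WT and 3.54% in B3AR-Tg had a positive r with an unadjusted p under the threshold. With Spearman's rho, 0 pairs passed after adjustment. The animals share their libraries' depth and composition, so these relations are not independent of it. WT replicates 2, 4 and 8 were the deepest WT libraries (10661394, 11584656 and 9951739 counts). They also had the lowest shares of mitochondrial counts in WT (18.8%, 21.3% and 21.1%). The same animals had the most Bgn and Fbn1 of the WT group. The WT pairs with these genes thus include the difference between those animals and the other WT animals.

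**Figure D2:**
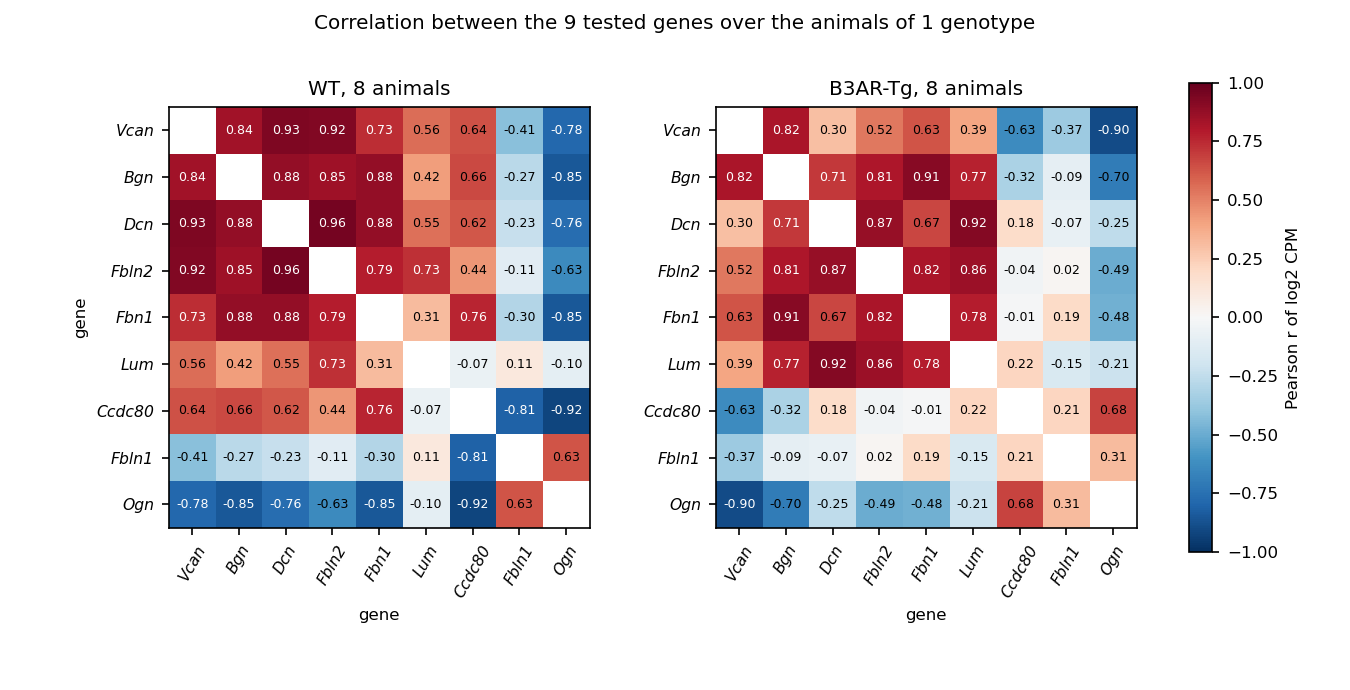
Pearson r of log2 CPM between each pair of the 9 tested genes over the 8 WT animals (left) and the 8 B3AR-Tg animals (right), on a colour scale from −1 (blue) to 1 (red) with r printed in each cell. Vcan, Bgn, Dcn, Fbln2 and Fbn1 form a red block in WT, and the row of Ogn is mostly blue in both genotypes.

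In WT the strongest relation was between Dcn and Fbln2, with r = 0.96 and rho = 0.90 (exact permutation p = 0.000397, adjusted p = 0.0279), and r was 0.96 without the 2 animals farthest from the median of Dcn. Vcan and Dcn followed with r = 0.93 and rho = 0.88 (exact permutation p = 0.000893, adjusted p = 0.0279, r = 0.90 without 2 animals). In B3AR-Tg Dcn and Lum were at r = 0.92 and rho = 0.90 (exact permutation p = 0.00308, adjusted p = 0.0279, r = 0.96 without 2 animals). Lum had only 3 to 41 counts per library there. Bgn and Fbn1 were at r = 0.91 and rho = 0.74 in B3AR-Tg (exact permutation p = 0.00268, adjusted p = 0.0279), with r = 0.65 without 2 animals. Vcan and Bgn were at r = 0.84 in WT (exact permutation adjusted p = 0.0479) and 0.82 in B3AR-Tg (exact permutation adjusted p = 0.0586). Dcn and Lum, neighbours on their chromosome, were at r = 0.55 in WT.

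Ogn went the other way, and the negative pairs that passed after adjustment, 2 in WT and 1 in B3AR-Tg, all included it. In WT it fell as Ccdc80 rose, with r = −0.92 and rho = −0.90 (exact permutation p = 0.00136, adjusted p = 0.0279), and r was −0.82 without the 2 animals farthest from the median of Ccdc80. It also fell as Bgn rose, with r = −0.85 and rho = −0.86 (exact permutation p = 0.00925, adjusted p = 0.0476, r = −0.91 without 2 animals). WT replicates 2, 4 and 8 had the most Ccdc80 and Bgn and the least Ogn of the WT animals, so both of these relations include the difference between those 3 animals and the other 5. In B3AR-Tg Ogn fell as Vcan rose, with r = −0.90 and rho = −0.79 (exact permutation p = 0.0031, adjusted p = 0.0279, r = −0.75 without 2 animals). Ccdc80 and Ogn were at r = 0.68 in B3AR-Tg, and the difference from WT was not tested. Ccdc80 and Fbln1 were at r = −0.81 in WT, which rested on the 2 WT animals with the highest Ccdc80, since r was −0.05 without the 2 animals farthest from the median.

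The genes most like Vcan were sought over all 16 animals after removing each genotype's mean, among 10902 genes that are not among the 10 and have a mean of at least 1 CPM. The 5 with the highest r were Col4a2 (a type IV collagen chain, r = 0.88), Ehbp1l1 (0.88), Col8a1 (a type VIII collagen chain, 0.87), Ckap4 (0.86) and Tln1 (talin, 0.86). Bgn was at 0.82 with Vcan by the same measure, and Ccdc80 at 0.27. That last value pools opposite signs: Vcan and Ccdc80 were at r = 0.64 in WT and −0.63 in B3AR-Tg. Neither passed after adjustment, and the difference between genotypes was not tested. Among the genes most like Ccdc80 were Tsr3 (0.90), P4hb (a subunit of collagen prolyl hydroxylase, 0.89), Azi2 (0.88) and Kat2b (0.85). Those most like Ogn, sought after its values had been seen, were Hnmt (0.88), Epha4 (0.88), Strit1 (0.88), Tmc7 (0.85) and Rapgef6 (0.84).

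Genes of the same families and partners of the 10 were taken from 6 lists. The lists were chosen by family, but with earlier results of these data known, so nothing is read from the counts called. Of 80 listed genes 33 could be tested, and 5 of them were lower in B3AR-Tg and 0 higher. Over all tested genes 2.88% were called lower and 2.03% higher, 4.91% in either direction. The median log2 fold change over the 33 was −0.28.

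Of 13 other small leucine-rich proteoglycans 4 were tested, and Aspn and Prelp were lower. Aspn, which encodes asporin, ranged from 2.35 through 6.22 to 16.3 CPM in WT and from 1.01 through 1.72 to 3.74 CPM in B3AR-Tg. Its log2 fold change was −1.94 (SE 0.36, edgeR adjusted p = 0.00527, between 0.00266 and 0.0152 without any 1 animal), and 0 of 8 B3AR-Tg animals were above the WT median. Prelp, the neighbour of Fmod, had a median of 1.44 CPM in WT and 0.554 in B3AR-Tg, with 114 and 44 counts in all. Its log2 fold change was −1.60 (SE 0.45, edgeR adjusted p = 0.0420), and the call was lost when any of 11 animals was left out, with adjusted p up to 0.0917. Podn did not pass (log2 −0.52). Epyc and Optc had 0 counts in every library.

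Among microfibril and elastic fibre genes 3 of 9 tested of 19 listed were lower. Ltbp2, which encodes a latent TGF-beta binding protein, averaged 3.47 ± 2.70 CPM in WT against 0.862 ± 0.487 in B3AR-Tg. The log2 fold change was −2.07 (SE 0.47, edgeR adjusted p = 0.0159). Emilin1, a glycoprotein of elastic fibres, changed by −1.37 on the log2 scale (SE 0.30, edgeR adjusted p = 0.0131). It had 8 to 29 counts per WT library and only 3 to 15 per B3AR-Tg library. The filter on low counts can be met by 1 group alone, so a gene low in B3AR-Tg can enter the test through WT. Loxl2, a collagen and elastin cross-linking enzyme, changed by −1.49 (SE 0.35, edgeR adjusted p = 0.0191). These 3 passed whichever animal was left out, but Ltbp2 did not pass with limma voom, and none of the 3 passed with either marker covariate described further on. For these 3 genes 0 of 8 B3AR-Tg animals were above the WT median.

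In edgeR no tested gene passed among the partners and proteases of versican or the enzymes that build its sugar chains. Of 17 hyaluronan and versican partners 4 were tested and 0 were called (1 at an unadjusted p under 0.05, 0 by DESeq2, and 1 by limma voom, Hyal2). Cd44, the hyaluronan receptor, averaged 7.93 ± 5.87 CPM in WT against 5.61 ± 1.95 in B3AR-Tg. Of 7 versican-cleaving proteases 3 were tested and 0 were called (1 at an unadjusted p under 0.05, 1 by DESeq2, Adamts8, which edgeR did not test, and 0 by limma voom). Adamts1 averaged 107 ± 19.5 CPM in WT against 126 ± 54.5 in B3AR-Tg. Of 22 genes of chondroitin and dermatan sulfate synthesis 13 were tested and 0 were called (0 by DESeq2 and by limma voom), with a median log2 fold change of −0.05. At an unadjusted p under 0.05 there were 6, of which B3gat3 and Fam20b were higher and the other 4 lower, against 2117 of all 10945 tested genes.

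**Figure D3:**
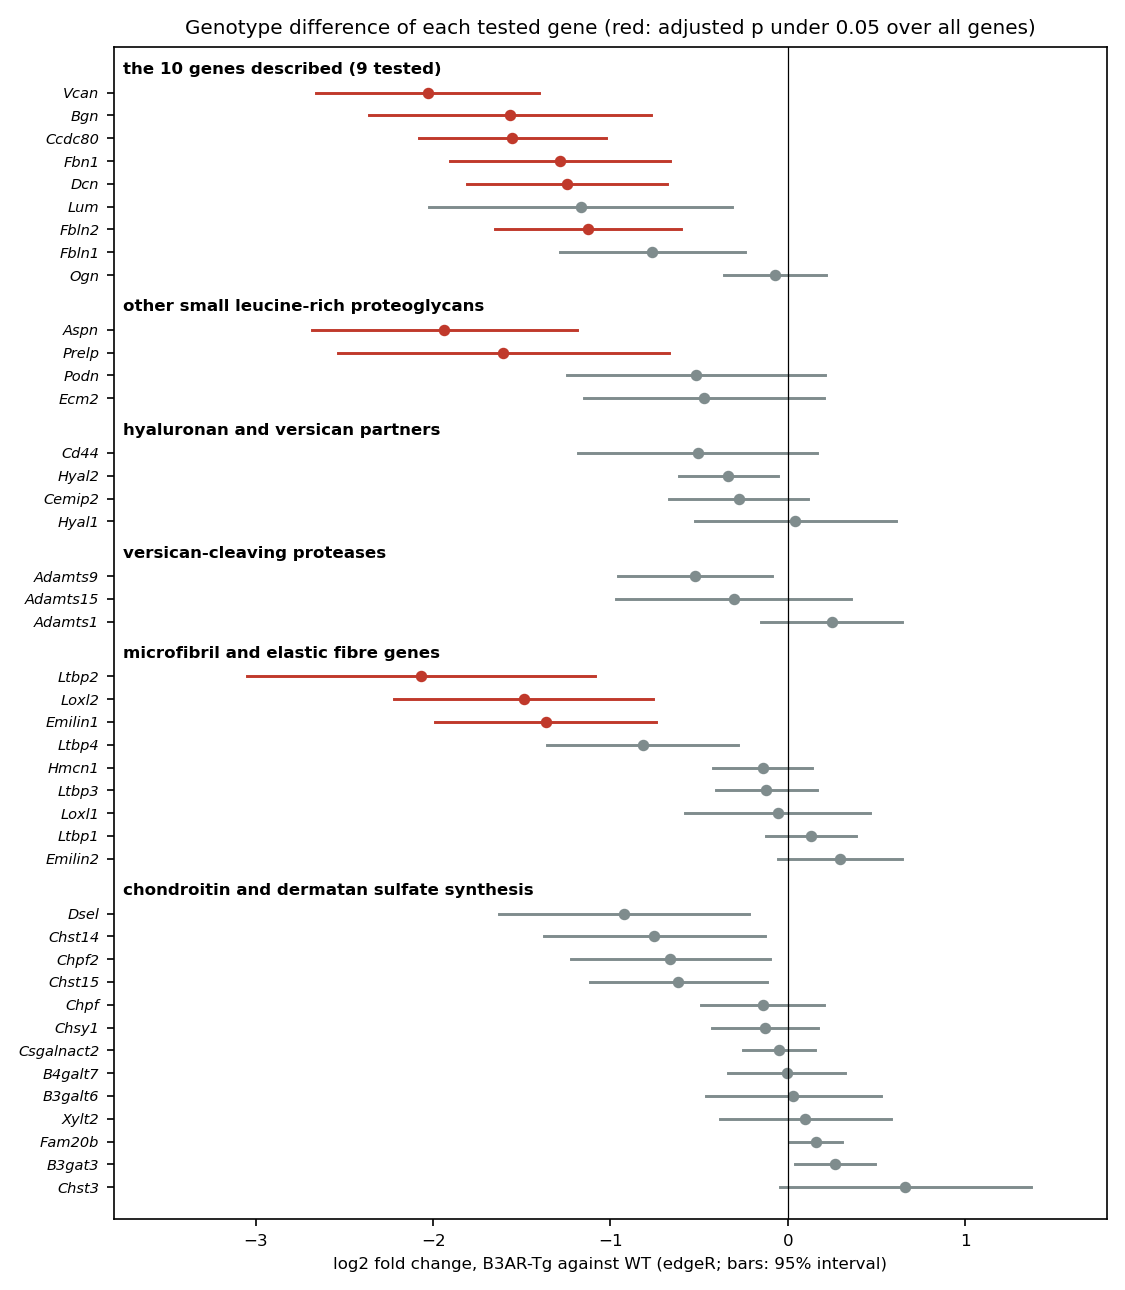
Log2 fold change of B3AR-Tg against WT (edgeR) with its 95% interval for the 9 tested genes described and for the 33 tested genes of the lists, grouped by list, red where the adjusted p over all genes is under 0.05. The intervals of Vcan (−2.66 to −1.40) and Ogn (−0.36 to 0.21) do not meet, and no gene is called higher.

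Markers of other cell types were measured in the same libraries, and the gene named as leading a list is the one with the highest mean WT CPM, not corrected for length. Over all 10945 tested genes edgeR called 2.88% lower and 2.03% higher. Of these genes 5350 had a log2 fold change below 0, and 2117 had an unadjusted p under 0.05. The marker lists were chosen with earlier results known, so their counts are a description. The 10 fibroblast markers summed to 11.8 to 21.2 CPM in WT and 3.53 to 13.6 CPM in B3AR-Tg. All 5 tested had a log2 fold change below 0, 3 had an unadjusted p under 0.05, and 1 passed in edgeR (Medag, lower). Medag had 11 to 27 counts per WT library and 1 to 14 per B3AR-Tg library. DESeq2 called 3 of the list. Dpt averaged 3.69 ± 1.15 CPM in WT against 2.04 ± 0.899 in B3AR-Tg, and Tcf21 was near 0 with 4 and 1 counts in all. Of the untested markers, Tcf21, Cd248 and Islr had a lower mean CPM in B3AR-Tg, and Clec3b and Scara5 a higher one. Clec3b had 5 counts in all in WT and 15 in B3AR-Tg, and Scara5 had 27 and 42. All 3 tested of 6 activated fibroblast markers passed as lower, and that list, led by Postn, summed to 21.2 to 123 CPM in WT and 8.81 to 41.7 CPM in B3AR-Tg. Endothelial markers, led by Fabp4, summed to 131 to 180 CPM (median 166) and 60.0 to 228 CPM (median 112). All 10 had a log2 fold change below 0, 5 had an unadjusted p under 0.05, and 2 passed as lower. Mural markers, led by Rgs5, summed to 92.5 to 167 CPM (median 100) and 48.7 to 146 CPM (median 106). Of 8 tested 7 had a log2 fold change below 0, and 0 were called by edgeR. Macrophage markers, led by Lyz2, summed to 5.58 to 20.5 CPM (median 9.17) and 1.32 to 9.03 CPM (median 6.76), with 0 of 3 called by edgeR. At an unadjusted p under 0.05 there were 3 mural and 2 macrophage markers, and DESeq2 called 0 in either list. Epicardial markers, led by Wt1, summed to 0.295 to 3.74 CPM and 0.856 to 5.23 CPM, and none of them could be tested. Of 10 cardiomyocyte markers 1 passed (Ryr2, higher). All 5 load markers were lower, and Ankrd1, which leads them, averaged 3856 ± 1601 CPM in WT against 1722 ± 723 in B3AR-Tg.

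With the summed fibroblast marker level as a covariate in edgeR, 0 of the 9 genes passed, 3 had an unadjusted p under 0.05, and 13 of all tested genes passed. The log2 fold change was then −1.71 for Ccdc80 and −1.51 for Vcan, −0.78 for Bgn, −0.71 for Fbn1, −0.46 for Dcn and for Fbln2, and −0.03 for Lum. With the summed level of fibroblast, endothelial, mural and macrophage markers instead, Vcan (−1.79) and Ccdc80 (−1.62) passed, and 228 of all tested genes did. The fibroblast marker sum itself had a median of 14.3 CPM in WT and 8.81 in B3AR-Tg, so the covariate and the genotype share variation, and the part of the markers' cells in the differences was not tested.

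**Figure D4:**
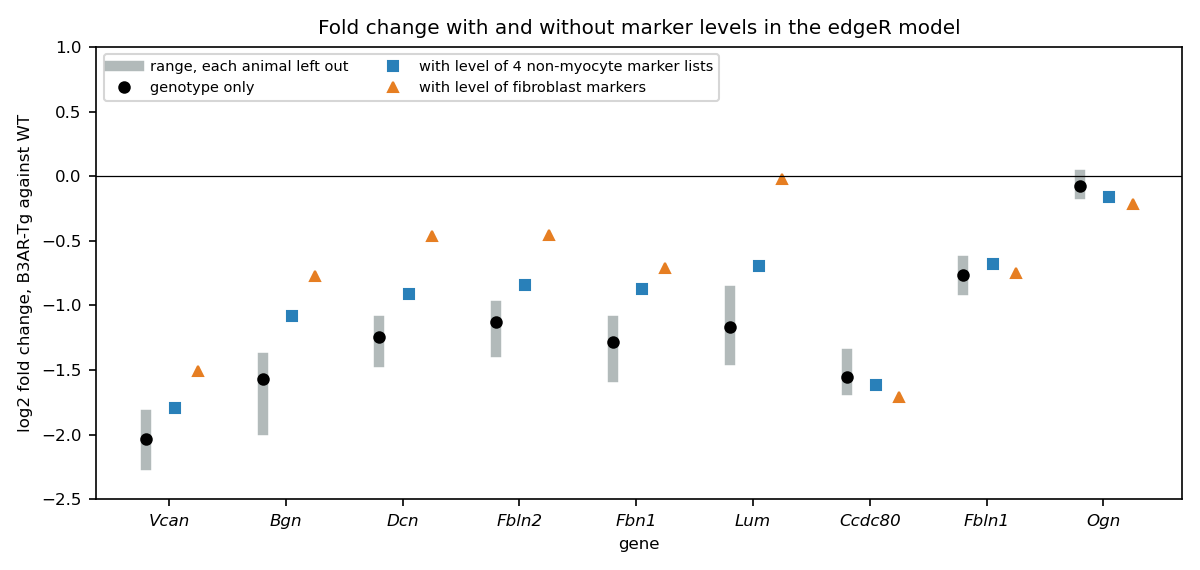
Log2 fold change of B3AR-Tg against WT for each of the 9 tested genes with genotype only (black), with the level of 4 non-myocyte marker lists as a covariate (blue) and with the level of fibroblast markers as a covariate (orange); grey bars span the fits that leave out each animal in turn. Ccdc80 and Vcan stay at −1.51 or lower under both covariates, and Lum moves to −0.03 with the fibroblast markers.

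Within B3AR-Tg, 4 of the 9 genes rose with the fibroblast marker level at an unadjusted exact permutation p under 0.05 (Bgn, Dcn, Lum and Fbln2), against 3.02% of all tested genes. After adjustment over the 36 relations of the 9 genes with this level and with Nppa in both genotypes, Dcn passed by Pearson r, with r = 0.91 (exact permutation p = 0.00293, adjusted p = 0.0443), and r was 0.78 without the 2 animals farthest from the median. By rho, at 0.88, it did not pass (exact permutation adjusted p = 0.0521). Adjusted over all tested genes, 0 of the 9 passed. Ccdc80 was at r = −0.000592 and Vcan at r = 0.54 with the same markers in B3AR-Tg. Within WT 0 of the 9 genes rose with the fibroblast level at an unadjusted p under 0.05 by Pearson r, against 2.64% of all tested genes. There r ranged from −0.23 for Ccdc80 to 0.69 for Fbln2. By rho, Fbln2 (0.76, exact permutation p = 0.0368) and Lum (0.74, exact permutation p = 0.0458) were under 0.05 unadjusted in WT, and neither passed after adjustment.

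Nppa, the atrial natriuretic peptide gene and a marker of load on the ventricle, was at a median of 263 CPM in WT and was lower, at 23.2, in B3AR-Tg. The log2 fold change was −3.99 (SE 0.68, edgeR adjusted p = 0.00362). The WT animals lay in 2 sets: replicates 2, 4 and 8 had 1240, 1076 and 1349 CPM, and the other 5 had 78.4 to 330 CPM, so a correlation over all 8 is described for none of the 9 genes, although these relations count among the 36 adjusted together, and neither set is large enough for its own. Over all tested genes 8.99% had a positive r with Nppa in WT at an unadjusted p under 0.05. Vcan was at 8.07, 5.80 and 11.0 CPM in WT replicates 2, 4 and 8 and at 2.65 to 7.19 CPM in the other 5. Ccdc80 was at 10.6, 19.5 and 19.5 CPM in those 3 animals and at 5.22 to 10.1 CPM in the rest. Bgn was at 12.8, 13.3 and 9.33 CPM against 2.35 to 8.03 CPM. Ogn was at 78.0, 65.5 and 69.9 CPM against 87.5 to 131 CPM, and Fbn1 at 21.2, 17.3 and 15.5 CPM against 5.88 to 14.8 CPM. The 2 sets did not overlap for Ccdc80, Bgn, Ogn and Fbn1, and they overlapped for Vcan, Dcn, Lum, Fbln1 and Fbln2. Within B3AR-Tg, where Nppa ranged from 5.76 to 120 CPM, 0 of the 9 genes rose with it at an unadjusted exact permutation p under 0.05, against 1.7% of all tested genes. B3AR-Tg replicate 7, the animal with the most Nppa in its group, also had the most Vcan, Bgn, Lum, Fbln2 and Fbn1 and the least Ogn. The part of load in these differences was not tested.

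**Figure D5:**
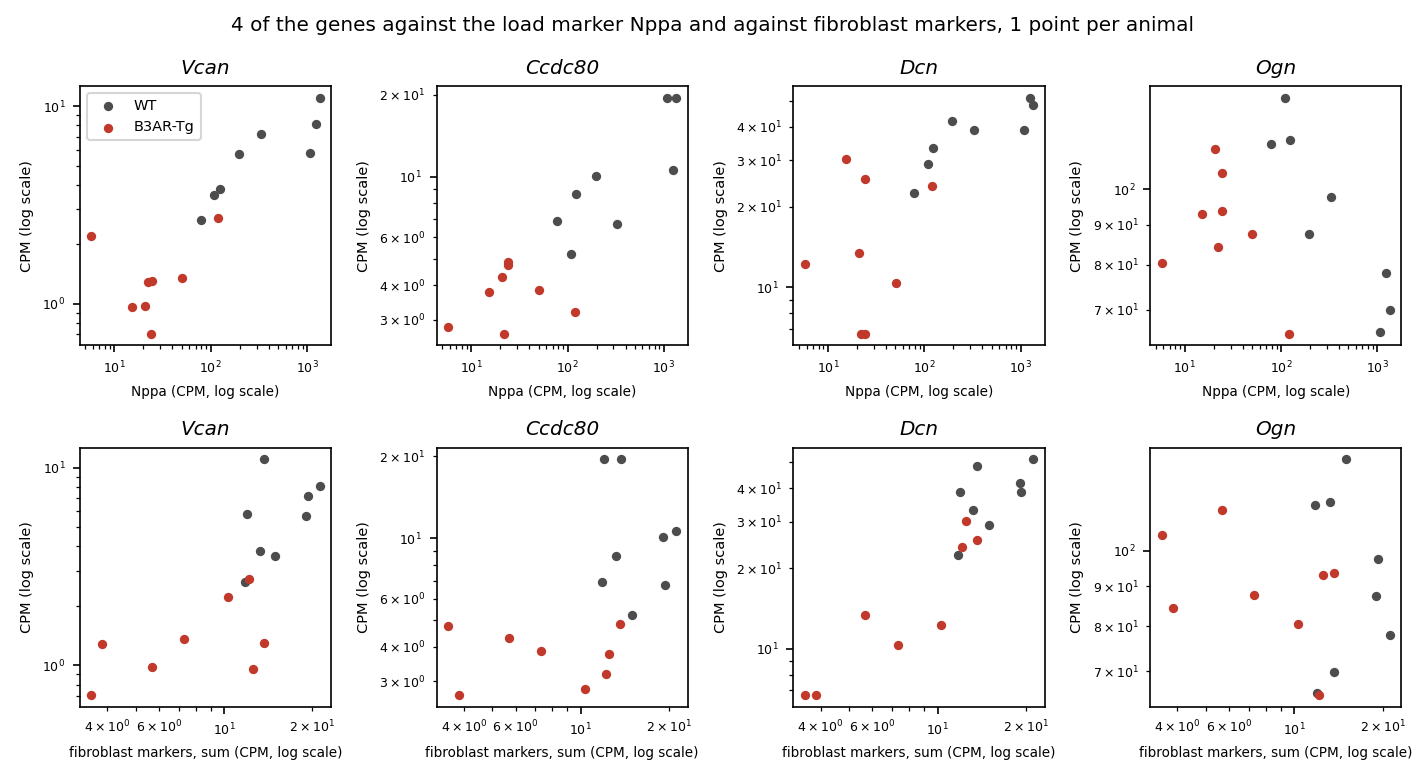
Level of Vcan, Ccdc80, Dcn and Ogn in CPM against Nppa (top row) and against the summed level of 10 fibroblast markers (bottom row), both axes logarithmic, 1 point per animal, WT in grey and B3AR-Tg in red. The 3 WT animals with the most Nppa have the lowest Ogn of the WT group (65.5 to 78.0 CPM), and Dcn in B3AR-Tg rises with the fibroblast markers from 6.70 to 30.2 CPM.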

How the data were processed

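RNA was measured in 16 samples by ribosomal RNA depletion from 500 ng of RNA, stranded libraries and paired-end sequencing, after hearts were perfused and the cells plated for 1 hour, per the labels' protocols. The authors deposited whole-number counts per gene without normalization. The submitters' processing notes name Salmon and the build GRCm39, with no role given, and how reads were counted was not given in the sources used here. Where several genes share reads, the counting may have split them. The labels call the samples biological replicates, and p-values measure the spread between them.

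From the counts, genes were kept by filterByExpr (minimum count 10, minimum total 15), scaled with TMM and fitted with genotype alone by the edgeR quasi-likelihood test (edgeR 4.0.16, R 4.3.3, limma 3.58.1, DESeq2 1.42.0), with Benjamini-Hochberg adjustment over all tested genes and a threshold of 0.05. Log2 CPM used a prior count of 2. Correlations used exact permutation of the pairings of 8 animals (two-sided on the size of r), whose smallest p is 2.48e-05. The script was tested on simulated counts. Fold changes give B3AR-Tg relative to WT.

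The 10 genes, the gene lists and the marker lists were chosen with earlier results of these data known. Genes outside the 10 are named when they passed the threshold (up to 5 per list by smallest p), as one of the 5 genes most like Vcan or Ccdc80, as Nppa, or as the marker with the highest WT level in its list. The other genes named (Cd44, B3gat3, Fam20b, Adamts1, Hyal2, Adamts8, Podn, Ecm2, Omd, Epyc, Optc, Srpx, Srpx2, Cenpp, Tcf21, Cd248, Islr, Clec3b, Scara5, Medag, Ryr2 and those most like Ogn) were chosen after their values were seen. Some genes that these rules name are not reported here. Promoter windows were available for 7 of the 10. Alternatives covered scaling, filtering, the test, a replicate block, marker covariates and leaving out each animal.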

Additional observations from a re-analysis of the deposited data

How the results depend on the processing

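The count of 6 genes lower in B3AR-Tg, and which 6 they were, was the same under RLE, upper-quartile and library-size scaling, without mitochondrial genes and Gm20594, with no filter or a stricter one, and with DESeq2 or limma voom. It was 0 with the fibroblast marker level as a covariate and 2 with the level of 4 non-myocyte lists, and 5 to 7 when each animal was left out. The 5 called genes of the 6 matrix lists became 10 with DESeq2, which also called Adamts8, Eln, Lox, Ltbp4 and Mfap5, 0 and 1 (Aspn) with the 2 covariates, and 4 to 7 when each animal was left out. Calls over all genes, 537, ranged from 13 with the fibroblast covariate to 840 with DESeq2, and were 272 without WT replicate 4, 277 without B3AR-Tg replicate 5 and 345 without B3AR-Tg replicate 8. The log2 fold change of Ogn, −0.07, turned to 0.0127 by library size alone and ranged from −0.14 to 0.00937 when each animal was left out, above 0 without WT replicate 3 only. With the replicate number as a replicate block, 6 of the genes, 4 list genes and 230 genes overall passed. Animals with the same number did not deviate together (r from −0.22 to 0.09, and 0 of 8 best matched their own number), so the numbers do not pair them. Of the relations with marker levels, 4 positive ones passed after adjustment by Pearson r, and so did 1 negative one, Ogn with Nppa in WT. Of the positive ones 3 were also with Nppa in WT, where the animals lay in 2 sets, so these are counted here but not described. There 8.99% of all tested genes had a positive r at an unadjusted p under the threshold. Without the 2 animals farthest from the median 0 positive ones passed. With 6 animals a relation can pass this adjustment only together with others at a similarly small p, so the 0 says little about stability. The 12 positive pairs that passed in both genotypes together were 12 with RLE scaling and 12 with a prior count of 0.5. The causes of these differences were not tested.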
